A study of Mus musculus with 14 samples.

Results

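The genes described here are 57 cell cycle and proliferation genes of the mouse, listed by name and function. The list was drawn up with earlier results of these data known, so counts over it are a description, not a test of the list. The 57 genes were found by gene ID in a table of 41739 genes, of which 18724 were measured well enough to be tested. They fall into 8 role groups: the D-type and E-type cyclins with their kinases (8 genes), the CDK inhibitor Cdkn1a, the E2F factors (4), the G2/M transcription factors Foxm1 and Mybl2, the genes of origin licensing and DNA replication (13), the mitotic cyclins and kinases (12), the APC/C and its substrates (3), and the genes of the spindle, the chromosomes and cytokinesis (14). The RNA came from microglia, which are brain-resident macrophages, isolated by MACS (magnetic bead sorting). Mice with the genotype Rheb F/F are called WT here, and mice with the genotype Rheb F/F; Tmem119-cre ER are called KO. All mice of both genotypes carried floxed Rheb and had received tamoxifen before the experiment. The product of Rheb is a GTPase that switches on mTORC1, a kinase complex that promotes growth, and Cre was driven by Tmem119, a gene of microglia. At 8 weeks of age the mice were injected daily for 4 days with PBS or with LPS, bacterial endotoxin, at 1.0 mg/kg. The 4 groups were WT PBS (3 libraries), KO PBS (3), WT LPS (4) and KO LPS (4).

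A dividing cell passes from G1 through S phase, in which DNA is copied, and G2 into mitosis. D-type cyclins with Cdk4 or Cdk6, and then E-type cyclins with Cdk2, phosphorylate the retinoblastoma protein and release E2F factors, which switch on genes of DNA replication. A later wave of genes, controlled by the MuvB complex with Mybl2 and Foxm1 and silenced in resting cells by the DREAM complex, supplies the cyclins, kinases and motors of mitosis. Adult microglia divide rarely and renew themselves locally.

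The later wave is read in promoters through the cell cycle homology region (CHR), usually near CCAAT boxes, and the S phase wave through E2F sites. Promoter sequences of RefSeq, build GRCm38.p6, were at hand for 44 of the 57 genes, with 50 windows from 250 bases before to 50 bases after the annotated start. They were searched on both strands. As CHR counted TTTGAA and also the variant TTCGAA. The second motif was the box named above, CCAAT. As an E2F site counted TTTGGCGC, TTTCGCGC, TTTCCCGC or TTTGCCGC. Matches of different motifs overlapped in 2 places. CHR letters were in 18 of 23 mitotic genes with a sequence (78.3%) and in 21.7% of all 27025 genes with a promoter of the same length. CCAAT was in 87% of the mitotic genes and 41.1% of all genes. The E2F letters were in 7 of 10 replication genes (70%), in 4.35% of the mitotic genes and in 2.6% of all genes. With matches before the start alone, CHR was in 39.1% of the mitotic genes against 19.6% of all genes, and E2F in 50% of the replication genes against 2.16%. A match is a run of letters, not a shown site of binding.

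The following windows run from 150 bases before to 30 bases after the start, 5′ to 3′ in the direction of the gene, with capitals marking CHR, CCAAT and E2F matches on either strand. Mki67, Top2a, Cdk1 and Ccnb2 are shown because their RNA was higher in LPS libraries, Mcm5 and Mcm6 as replication genes that were not called, and Cdk6 because it differed between KO and WT. The windows are Mki67 chr7:135716350-135716529 (minus strand), Top2a chr11:99024160-99024339 (minus strand), Cdk1 chr10:69352883-69353062 (minus strand), Ccnb2 chr9:70421525-70421704 (minus strand), Mcm5 chr8:75109359-75109538 (plus strand), Mcm6 chr1:128359676-128359855 (minus strand) and Cdk6 chr5:3343743-3343922 (plus strand).
Mki67: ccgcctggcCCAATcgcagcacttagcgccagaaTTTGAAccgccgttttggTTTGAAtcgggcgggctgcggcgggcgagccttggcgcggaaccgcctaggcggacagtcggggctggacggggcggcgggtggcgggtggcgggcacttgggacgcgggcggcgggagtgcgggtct
Top2a: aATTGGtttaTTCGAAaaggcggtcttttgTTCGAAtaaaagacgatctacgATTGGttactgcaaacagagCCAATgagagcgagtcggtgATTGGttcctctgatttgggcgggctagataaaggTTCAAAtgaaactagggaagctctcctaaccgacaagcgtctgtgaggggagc
Cdk1: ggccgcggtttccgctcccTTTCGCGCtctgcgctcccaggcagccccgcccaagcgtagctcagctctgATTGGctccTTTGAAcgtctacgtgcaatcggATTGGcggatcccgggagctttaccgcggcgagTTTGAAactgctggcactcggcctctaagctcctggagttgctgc
Ccnb2: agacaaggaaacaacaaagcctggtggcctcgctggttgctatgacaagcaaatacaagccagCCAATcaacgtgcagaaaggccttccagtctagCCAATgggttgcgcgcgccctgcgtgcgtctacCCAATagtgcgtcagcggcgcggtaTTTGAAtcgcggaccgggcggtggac
Mcm5: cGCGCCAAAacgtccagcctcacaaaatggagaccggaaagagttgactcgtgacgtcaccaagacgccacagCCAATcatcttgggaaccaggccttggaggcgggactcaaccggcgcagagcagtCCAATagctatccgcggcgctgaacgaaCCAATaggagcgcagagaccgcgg
Mcm6: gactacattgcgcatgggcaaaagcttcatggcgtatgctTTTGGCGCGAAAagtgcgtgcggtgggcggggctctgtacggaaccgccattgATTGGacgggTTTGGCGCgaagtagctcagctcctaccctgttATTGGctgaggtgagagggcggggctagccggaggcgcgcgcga
Cdk6: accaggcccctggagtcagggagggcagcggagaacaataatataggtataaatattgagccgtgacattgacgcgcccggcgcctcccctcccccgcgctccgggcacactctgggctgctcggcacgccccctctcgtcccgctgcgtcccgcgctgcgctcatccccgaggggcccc
The mitotic promoters held 1 to 3 CHR matches in these windows, Cdk1 also 1 E2F match. Mcm5 had 1 and Mcm6 3 E2F matches and no CHR, and in the window of Cdk6 none of the 3 motifs was found. The Mcm6 matches that begin at −110 and −106 from the start lie on opposite strands and overlap, so they are not separate stretches.

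Some features of the libraries touch every result. Xist, the RNA of the inactive X chromosome, was at most 0.147 TPM in the PBS libraries and at 298, 329, 309.8 and 255 TPM in WT LPS and 479, 354, 499 and 574 in KO LPS. The Y-linked gene Ddx3y was at 111 to 146 TPM in the PBS libraries and at most 0.270 in the LPS libraries. The PBS libraries thus carried male and the LPS libraries female transcripts, although the study describes female mice, so LPS and sex cannot be told apart. Gm23935, a single non-coding feature, took 566 to 2477 TPM in PBS and 40440 to 153781 TPM in LPS libraries. The median gene was at −0.28 (log2) with LPS in WT and −0.22 in KO. After rescaling without abundant and short features it was at −0.21 in WT and −0.07 in KO. Under PBS, Rheb itself read 29.7, 32.2 and 34.5 TPM in WT libraries and 16.6, 19.02 and 19.1 in KO libraries, all of them lower (−0.79 ± 0.12 (SE), adjusted p = 0.0163). Leaving out KO_PBS_911, KO_PBS_912, WT_PBS_913 or WT_PBS_914 ended this call, at adjusted p of 0.0612 to 0.096 and log2 fold changes of −0.82 to −0.72. Under LPS it read 31.8, 32.5, 33.6 and 25.1 in WT and 25.5, 22.9, 23.1 and 19.5 in KO, and the difference was not called (adjusted p = 0.11). Tmem119 was also lower in KO, by 0.70 on the log2 scale under PBS (adjusted p = 0.0389). Cre was present in KO only, and its effects and those of the Tmem119 allele cannot be told apart from the loss of Rheb. Pituitary hormone transcripts summed to 88933 TPM in WT_PBS_914 and 31967 in KO_LPS_3, and to 50.01 or less elsewhere. Microglial markers were present throughout, at a sum over 8 genes of 25181 to 32671 TPM in PBS and 12966 to 21340 in LPS libraries. Markers of choroid plexus and ependyma (5 genes) summed to 11030 to 25833.5 TPM in PBS and 2322 to 14537 in LPS libraries. The libraries thus held RNA of other cells too. The choroid plexus and ependyma sum was mostly lower in LPS libraries, but KO_LPS_2 (14537 TPM) was above KO_PBS_915 (11030 TPM). The difference was not tested. Recovered reads numbered 8.00 M (mega) in KO_LPS_4 to 32.3 M in WT_LPS_1.

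Levels are TPM (read density per gene length, scaled to a fixed total per library) and are listed in the order WT_PBS_904, WT_PBS_913 and WT_PBS_914, then KO_PBS_911, KO_PBS_912 and KO_PBS_915, and libraries 1 to 4 for each LPS group. Differences are log2 fold changes of TPM + 1, which understate the ratio of low genes, and a gene is said to have risen or fallen only at an adjusted p under 0.05 over all 18724 genes. All 57 genes were tested, 50 had at least 1 TPM in every library, and 4 (Ccne1, E2f7, Cdc6 and Ttk) reached 1 TPM in fewer than 3 PBS libraries, so that they passed through the LPS groups. The reads behind 1 value ranged from 4 (Ccne1) to 3871, and 8 genes had a library with fewer than 20 reads. The labels do not say that libraries came from separate animals, so the p-values measure the spread between libraries only. In bulk RNA, more cells of a type and more RNA per cell cannot be told apart.

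More of these genes were called between LPS and PBS than between the genotypes. In KO, 32 of the 57 genes were called higher in LPS than in PBS libraries and 2 lower. Of all genes tested 34.7% were called, 7.82% higher and 26.9% lower. Among the 32 were Ccne1 and Ttk, which passed the filter through the LPS groups. Without the filter 27 were called higher. In WT, 11 of 57 were called higher and 2 lower, against 7.95% and 34.1% of all genes (42% either way). An unadjusted p under 0.05 was held by 40 of the 57 in KO (44.6% of all genes) and by 27 in WT (50.5%). Higher values were concentrated among the mitotic genes, while the D-type cyclin Ccnd1 fell in both genotypes. Lower in every LPS than in every PBS library were Ccnd1 and Ccnd2 in WT (37.4% of all genes) and Ccnd1, Cdk6 and Mcm7 in KO (31.3%). Between KO and WT under PBS, 2 of 57 genes were called, Ccnd1 and Cdk6, both higher in KO, against 0.796% of all genes called higher and 0.224% lower. Between KO and WT under LPS none of the 57 was called, against 0.497% of all genes (0.256% called higher). The test of whether the LPS effect differed between genotypes called 0 of 18724 genes with limma, of which 1780 had an unadjusted p under 0.05 (9.51%), among them 8 of the 57. Under every alternative in which the gene was tested, 22 of the 34 calls with LPS in KO held, and 3 of 13 in WT (Ccnd1, E2f1 and Gins1). Ccne1, among the 22, was not tested with the filter at 5 TPM.

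**Figure D1:**
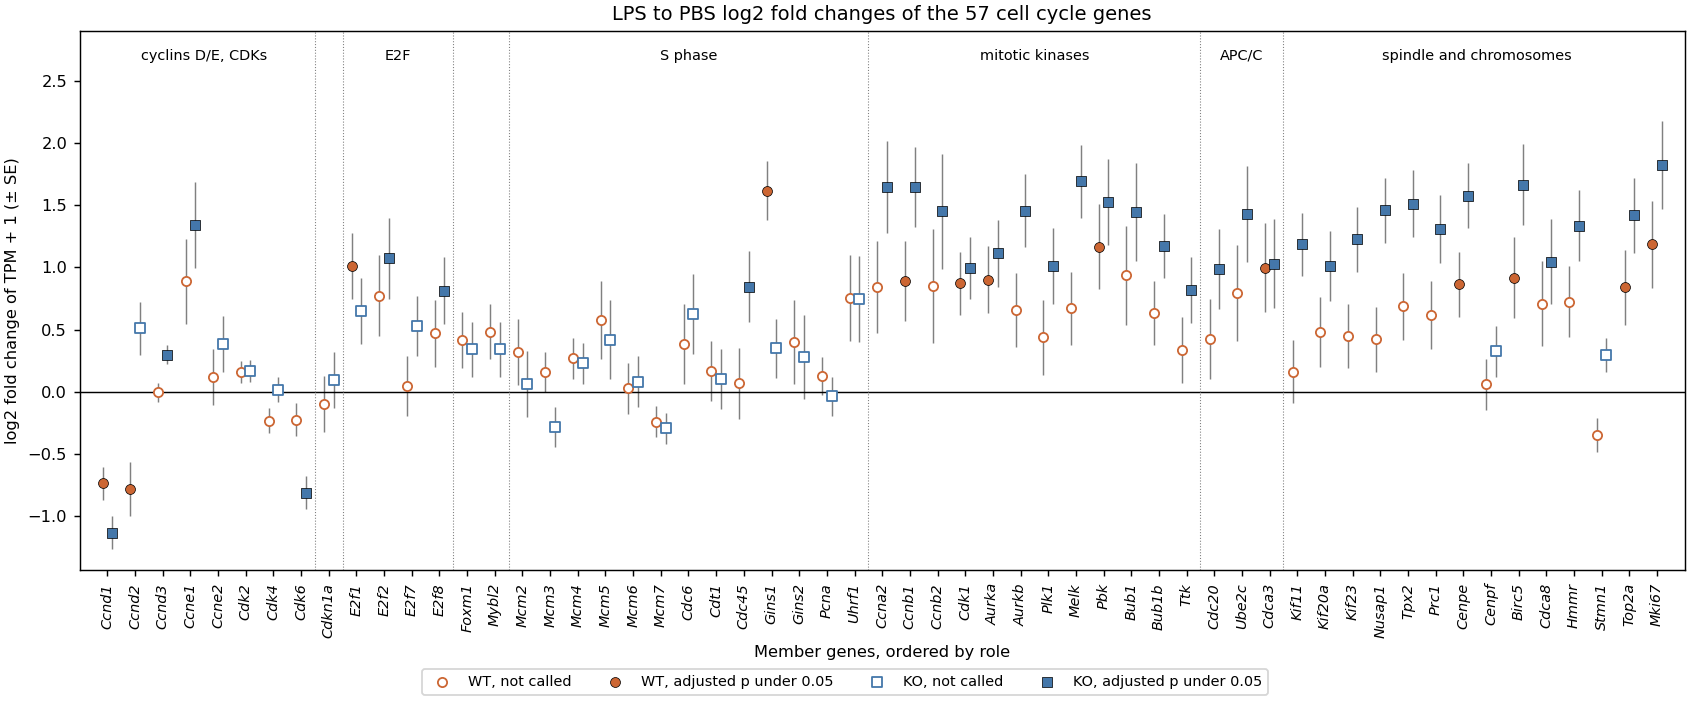
Log2 fold changes (TPM + 1) of LPS against PBS for each of the 57 genes, ordered by role, in WT (circles) and KO (squares). Bars are 1 SE and filled symbols mark an adjusted p under 0.05. The 12 mitotic cyclins and kinases are all filled in KO. Of the 13 S phase genes 1 is filled in each genotype, with medians of 0.27 in WT (12 positive) and 0.23 in KO (10 positive).

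Ccnd1 encodes cyclin D1, which activates Cdk4 and Cdk6 in G1. Ccnd1 was measured at 81.5, 76.4 and 72.2 TPM in the WT PBS libraries, 136, 147 and 141 in KO PBS, 41.9, 50.3, 53.2 and 38.7 in WT LPS and 68.5, 49.4, 69.4 and 71.9 in KO LPS. All 3 KO PBS libraries were above all others, and the WT LPS libraries did not overlap with either PBS group. Under PBS it was 1.85-fold higher in KO (142 ± 5.55 TPM (SD, n = 3) against 76.7 ± 4.65 TPM (SD, n = 3); log2 0.88 ± 0.14 (SE), adjusted p = 0.0177). By exact permutation of libraries (two-sided) p was 0.1, which is the minimum for 3 against 3. Leaving out 1 library ended this call for 5 of the 6 libraries, each time with a log2 fold change of 0.84 to 0.91 and an adjusted p of 0.0667 (without WT_PBS_913) to 0.091 (without KO_PBS_911). Without WT_PBS_904 the call remained. Under LPS the KO libraries were higher by 0.48 and this was not called (adjusted p = 0.107); KO_LPS_2 lay among the WT values. Without KO_LPS_2 the difference was 0.60 with an adjusted p of 0.0381. It was also called after rescaling without abundant features (adjusted p = 0.0406) and with voom on recovered reads (adjusted p = 0.0416). With LPS, Ccnd1 fell by 0.73 in WT (adjusted p = 0.00114) and by 1.13 in KO (adjusted p = 6.37e-05). Ccnd1 shares 1100 exon bases with LTO1 on the opposite strand, a gene at 10.7 TPM at most, and the counting is not stated to use strand.

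Cdk6, a kinase partner of the D-type cyclins, was likewise highest in KO PBS. Cdk6 read 28.5, 30.9 and 23.5 TPM in the WT PBS libraries, 54.8, 46.5 and 49.7 in KO PBS, 22.3, 30.2, 21.7 and 20.5 in WT LPS and 26.9, 29.995, 25.7 and 30.6 in KO LPS. Every KO PBS value lay above every other library, and the other 3 groups overlapped. Under PBS it was 1.82-fold higher in KO (log2 0.85 ± 0.14 (SE), adjusted p = 0.0196), and with LPS it fell in KO by 0.81 (adjusted p = 5.97e-04). In WT the LPS to PBS difference was −0.22 (adjusted p = 0.195). The PBS call was lost when the compared groups were fitted alone (adjusted p = 0.0575) and without any 1 of 5 libraries, at 0.0563 without WT_PBS_904 to 0.106 without KO_PBS_911, and remained without WT_PBS_913.

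**Figure D2:**
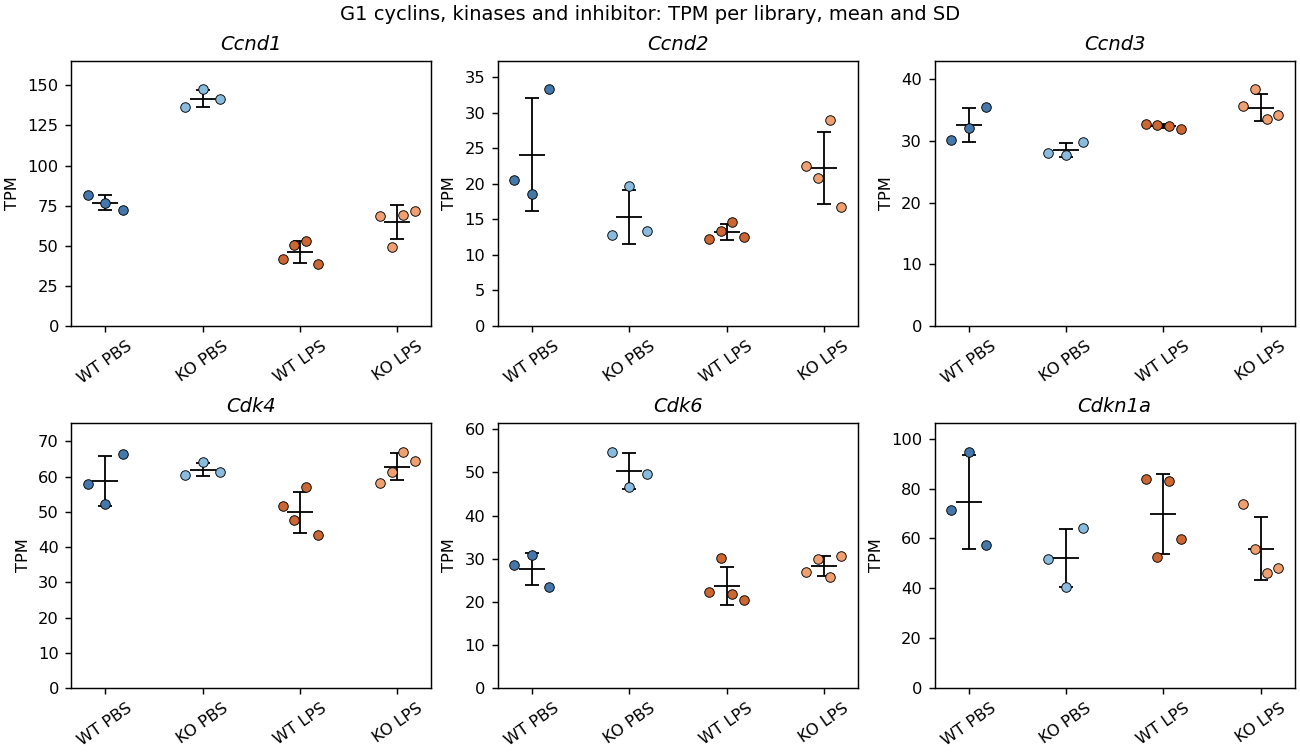
TPM of the D-type cyclins Ccnd1, Ccnd2 and Ccnd3, the kinases Cdk4 and Cdk6 and the inhibitor Cdkn1a in each library (points) by group, with the mean and SD (bars). Ccnd1 lies at 136 to 147 TPM in KO PBS and at 38.7 to 81.5 TPM elsewhere, and Cdk6 at 46.5 to 54.8 TPM in KO PBS and at 20.5 to 30.9 TPM elsewhere.

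The other D-type cyclins had different patterns. Ccnd2, cyclin D2, stood at 20.5, 18.6 and 33.3 TPM in the WT PBS libraries, 12.9, 19.7 and 13.4 in KO PBS, 12.2, 13.3, 14.7 and 12.6 in WT LPS and 22.5, 20.9, 28.96 and 16.7 in KO LPS. It fell with LPS in WT without overlap (log2 −0.78 ± 0.21 (SE), adjusted p = 0.0112), whereas in KO the groups overlapped, with KO_LPS_4 below KO_PBS_912, and the difference was not called (0.51, adjusted p = 0.0819). The WT call was lost without WT_PBS_914 (−0.53, adjusted p = 0.0527) and with median-of-ratios scaling (−0.46, adjusted p = 0.128). Under LPS all KO values lay above all WT values, by 0.69 (adjusted p = 0.153). Its LPS effect differed between the genotypes by 1.29, the smallest p among the 57 genes in that test, and this was not called (adjusted p = 0.362). Ccnd3, cyclin D3, was measured at 30.2, 32.1 and 35.5 TPM in the WT PBS libraries, 28.05, 27.8 and 29.8 in KO PBS, 32.8, 32.6, 32.4 and 31.9 in WT LPS and 35.7, 38.3, 33.5 and 34.1 in KO LPS. Its range over all libraries was narrow, and the rise with LPS in KO was small (0.30 ± 0.07 (SE), adjusted p = 0.00795). Ccnd3 shares 361 exon bases with Bysl on the opposite strand.

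The remaining kinases and E-type cyclins act at the G1 to S transition. Cdk4, the second partner of the D-type cyclins, read 57.9, 52.1 and 66.4 TPM in the WT PBS libraries, 60.5, 64.04 and 61.2 in KO PBS, 51.6, 47.6, 56.97 and 43.4 in WT LPS and 58.2, 61.4, 67.1 and 64.3 in KO LPS. Under LPS every KO library was above every WT library, and the difference of 0.33 was not called (adjusted p = 0.142). Cdk4 shares 641 exon bases with Tspan31 on the opposite strand, a gene at up to 120.2 TPM. Ccne1, cyclin E1, stood at 0.578, 0.357 and 1.93 TPM in the WT PBS libraries, 0.7698, 0.694 and 0.8098 in KO PBS, 1.73, 1.71, 5.93 and 1.64 in WT LPS and 3.796, 3.55, 3.22 and 3.28 in KO LPS. With LPS in KO it was called higher (1.34 ± 0.34 (SE), adjusted p = 0.00904), from under 1 TPM in all 3 libraries to above 3 TPM in all 4. Ccne1 passed the filter through the LPS groups, where it was high, so this call is not independent of the filter. Its lowest read number in a library was 4. In WT 1 LPS library, WT_LPS_3, was far above the other 3. Ccne2 ranged from 4.47 to 9.79 TPM and Cdk2 from 22.4 to 31.7 TPM, and neither was called in any comparison. Cdkn1a encodes p21, an inhibitor of cyclin-dependent kinases. Cdkn1a was measured at 71.4, 94.8 and 57.5 TPM in the WT PBS libraries, 51.7, 40.6 and 64.1 in KO PBS, 83.7, 52.4, 82.9 and 59.6 in WT LPS and 73.9, 55.5, 46.2 and 47.96 in KO LPS. The groups overlapped in all 4 comparisons and none was called.

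E2F1 and E2F2 are activators, and E2F7 and E2F8 repressors, of E2F target genes. E2f1 read 4.05, 3.54 and 4.63 TPM in the WT PBS libraries, 4.03, 6.08 and 3.59 in KO PBS, 9.47, 7.59, 14.8 and 6.62 in WT LPS and 10.9, 6.68, 8.198 and 5.403 in KO LPS. All WT LPS values exceeded all WT PBS values, a rise of 1.01 ± 0.27 (SE), adjusted p = 0.00949, and the difference was 0.65 in KO, where the groups overlapped and it was not called (adjusted p = 0.0776). E2f2 stood at 3.42, 6.18 and 15.2 TPM in the WT PBS libraries, 4.995, 5.82 and 6.22 in KO PBS, 11.7, 11.2, 16.6 and 11.9 in WT LPS and 14.2, 14.6, 14.2 and 9.71 in KO LPS. In KO the LPS and PBS values did not overlap and it rose (1.07 ± 0.33 (SE), adjusted p = 0.0227), while in WT the library WT_PBS_914 read as high as the LPS libraries. The KO call was lost without KO_LPS_2, KO_PBS_911 or KO_PBS_912 (adjusted p = 0.0521 to 0.0719). E2f8 was measured at 1.58, 1.57 and 3.66 TPM in the WT PBS libraries, 1.47, 1.82 and 1.85 in KO PBS, 3.24, 2.14, 5.37 and 3.21 in WT LPS and 4.77, 3.17, 3.88 and 3.36 in KO LPS. It rose in KO (0.81 ± 0.27 (SE), adjusted p = 0.0322) and read 0.47 in WT (adjusted p = 0.175), and again WT_PBS_914 was the high WT PBS library. With 1 of the 7 KO libraries left out in turn, the E2f8 call remained without KO_LPS_2 and without KO_LPS_4, and was otherwise lost, at an adjusted p of 0.0573 to 0.0956. E2f7 was at 1.39 TPM or less in every library and was not called.

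Foxm1 and Mybl2 (B-Myb), the transcription factors of the G2/M wave, ranged from 4.34 to 10.9 and from 1.28 to 5.02 TPM. Neither was called in any of the 4 comparisons. With LPS both were higher by 0.34 to 0.48 on the log2 scale in each genotype.

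Of the 13 genes of origin licensing and replication, 1 was called with LPS in each genotype, both higher, against 7.95% (WT) and 7.82% (KO) of all genes called higher. Their median log2 fold change was 0.27 in WT and 0.23 in KO, and −0.28 and −0.22 over all genes tested. With median-of-ratios scaling the medians were 0.57 and 0.43, with 4 genes called in WT and 1 in KO. Gins1, a subunit of the GINS complex of the replicative helicase, read 5.08, 3.45 and 4.01 TPM in the WT PBS libraries, 7.84, 8.23 and 6.28 in KO PBS, 11.8, 15.9, 24.3 and 10.2 in WT LPS and 9.67, 11.1, 9.75 and 8.499 in KO LPS. The 4 WT LPS libraries lay well above the WT PBS libraries (1.62 ± 0.24 (SE), adjusted p = 3.24e-04, the largest log2 change with LPS among the 57 genes in WT). In KO the difference was 0.35 (adjusted p = 0.276), with KO PBS already above WT PBS without overlap (0.71, adjusted p = 0.2). The difference between these LPS effects, −1.27, was not called (adjusted p = 0.385). Cdc45, the helicase subunit loaded with GINS, stood at 2.38, 3.39 and 5.96 TPM in the WT PBS libraries, 1.52, 3.23 and 2.51 in KO PBS, 3.31, 3.57, 5.85 and 3.33 in WT LPS and 6.61, 5.97, 4.13 and 3.79 in KO LPS. It rose in KO (0.85 ± 0.29 (SE), adjusted p = 0.0366) and read 0.07 in WT (adjusted p = 0.87). The rise was lost without KO_LPS_1, KO_LPS_2, KO_PBS_911 or KO_PBS_915 (adjusted p = 0.0734 to 0.147). Cdc45 shares 209 exon bases with Ufd1 on the opposite strand, a gene at up to 47.8 TPM.

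The helicase core Mcm2 to Mcm7, by contrast, held no called gene. Mcm2 was measured at 4.27, 4.44 and 7.59 TPM in the WT PBS libraries, 6.36, 6.51 and 5.73 in KO PBS, 5.71, 6.21, 12.2 and 4.86 in WT LPS and 7.01, 6.68, 7.71 and 4.899 in KO LPS. WT_LPS_3 was its highest library, and the groups overlapped in every comparison. Mcm3 to Mcm7 ranged from 7.37 TPM (Mcm5 in WT_PBS_913) to 57.6 TPM (Mcm3 in WT_LPS_3). Mcm7 was higher in KO than in WT under PBS without overlap, by 0.37 (adjusted p = 0.207). Pcna, the sliding clamp of the DNA polymerases, was the most abundant replication gene of the list at 95.4, 105 and 99.5 TPM in the WT PBS libraries, 133, 135 and 101 in KO PBS, 103, 101, 129 and 106 in WT LPS and 159, 119, 95.5 and 109.97 in KO LPS. Its groups overlapped in each of the 4 comparisons, and reads may be shared with pseudogene copies. The licensing factors Cdc6 and Cdt1, Gins2 and the methylation maintenance factor Uhrf1 were not called. Uhrf1 had the largest LPS values of these 4, with 0.75 in WT and 0.75 in KO (adjusted p = 0.0966 and 0.111), and no overlap in KO. The median of the 13 genes in WT was 0.07 without WT_LPS_3, and in KO it was 0.10 without KO_LPS_1 and 0.38 without KO_LPS_4.

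The mitotic genes were the group in which LPS libraries stood highest. Of the 29 genes in the 3 mitotic groups, 27 rose with LPS in KO and 9 in WT, and none fell. Over all genes tested, 7.82% were called higher in KO and 7.95% in WT. Ttk, among the 27, passed the filter through the LPS groups. Without the filter, 24 of the 28 genes other than Stmn1 were called higher in KO. The median log2 fold change of the 28 genes other than Stmn1 was 1.38 in KO and 0.72 in WT, against −0.22 and −0.28 over all genes tested. In KO, 26 of the 28 had no overlap between LPS and PBS libraries (9.52% of all genes), and in WT 2 of 28 (8.45%). Leaving out 1 library in KO kept 19 to 26 of the 28 called. The calls lost in one or another alternative were those of Ccnb2, Plk1, Bub1, Ttk, Cdc20, Ube2c, Cdca3, Kif20a and Cdca8. With 1 of the 7 KO libraries left out in turn, Cdca3 and Cdca8 each lost the call 6 times. Ccnb2 and Ttk lost it 5 times, Cdc20 and Plk1 4 times, and Bub1, Ube2c and Kif20a 1 time. In WT the count was unstable: 21 of 28 were called without WT_PBS_914, 0 without WT_PBS_904, 1 without WT_PBS_913 and 4 without WT_LPS_3, and with both WT_PBS_914 and WT_LPS_3 left out it was 18. Median-of-ratios scaling called 18 in WT and 27 in KO. In WT 20 were called with library weights, 5 without the filter and 2 with the compared groups alone. Each of the 9 WT calls was lost without WT_PBS_904, and all but that of Cdk1 also without WT_PBS_913.

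**Figure D3:**
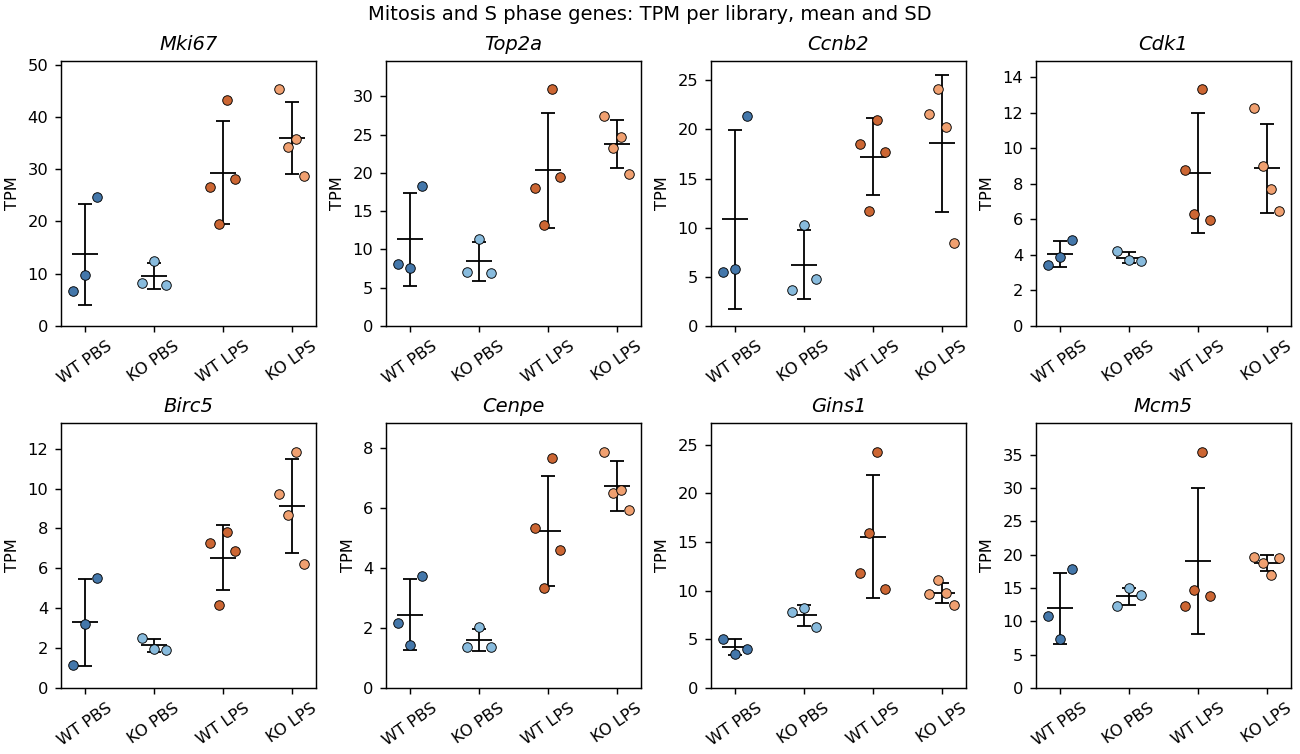
TPM in each library (points) with mean and SD (bars) by group for 6 mitotic genes (Mki67, Top2a, Ccnb2, Cdk1, Birc5 and Cenpe) and 2 replication genes (Gins1 and Mcm5). In KO the LPS and PBS values of Mki67, Top2a, Cdk1, Birc5 and Cenpe do not overlap, and in WT PBS 1 library, WT_PBS_914, stands above the other 2 for most mitotic genes.

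Mki67 encodes Ki-67, the chromosome surface protein used as the standard marker of cycling cells. Mki67 read 6.71, 9.701 and 24.7 TPM in the WT PBS libraries, 8.23, 12.4 and 7.86 in KO PBS, 26.6, 19.5, 43.2 and 28.1 in WT LPS and 45.2, 34.3, 35.7 and 28.8 in KO LPS. WT_PBS_914 read above the other PBS libraries and within the WT LPS range, while KO LPS and KO PBS were well apart. It rose 3.79-fold in KO (log2 1.83 ± 0.35 (SE), adjusted p = 0.00168), the largest log2 change among the 57 genes there, and 2.14-fold in WT (log2 1.19 ± 0.35 (SE), adjusted p = 0.0168). The WT call was lost without WT_PBS_904 (0.82, adjusted p = 0.0916) and without WT_PBS_913 (1.05, adjusted p = 0.0644). Top2a, topoisomerase II alpha, which untangles chromosomes, stood at 8.08, 7.54 and 18.3 TPM in the WT PBS libraries, 7.03, 11.4 and 6.896 in KO PBS, 17.98, 13.2, 30.9 and 19.4 in WT LPS and 27.4, 23.2, 24.7 and 19.9 in KO LPS. Again WT_PBS_914 lay above the other PBS libraries and within the WT LPS range. It rose by 1.42 ± 0.30 (SE), adjusted p = 0.0032 in KO and by 0.84 ± 0.30 (SE), adjusted p = 0.0407 in WT. In WT the call was lost without any 1 of 5 libraries, at 0.0551 without WT_LPS_1 to 0.165 without WT_PBS_913. Cdk1, the kinase that drives entry into mitosis, was measured at 3.43, 3.85 and 4.85 TPM in the WT PBS libraries, 4.19, 3.697 and 3.64 in KO PBS, 8.798, 6.32, 13.3 and 5.94 in WT LPS and 12.3, 9.02, 7.696 and 6.49 in KO LPS. Unlike the other 2, it did not overlap between LPS and PBS in either genotype, with rises of 1.00 in KO (adjusted p = 0.0088) and 0.87 in WT (adjusted p = 0.0149).

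The cyclins that partner Cdk1 were the A-type and B-type cyclins. Ccna2 read 3.56, 2.73 and 10.1 TPM in the WT PBS libraries, 1.41, 4.75 and 3.39 in KO PBS, 9.17, 6.88, 13.4 and 8.81 in WT LPS and 14.02, 11.7, 10.9 and 9.06 in KO LPS. Ccnb1 stood at 2.24, 2.03 and 5.13 TPM in the WT PBS libraries, 2.24, 3.18 and 1.41 in KO PBS, 7.03, 3.35, 10.4 and 6.02 in WT LPS and 9.59, 9.37, 9.21 and 7.88 in KO LPS. Both had KO LPS values above every KO PBS value, and WT_PBS_914 lay within the WT LPS range. Ccnb2 was measured at 5.46, 5.74 and 21.3 TPM in the WT PBS libraries, 3.61, 10.3 and 4.81 in KO PBS, 18.5, 11.7, 20.97 and 17.7 in WT LPS and 21.6, 24.1, 20.3 and 8.42 in KO LPS. Here KO_LPS_4 lay below the highest KO PBS library, so that the groups overlapped. In KO the rises of Ccna2, Ccnb1 and Ccnb2 were 1.65, 1.65 and 1.45 (adjusted p = 0.00431, 0.00182 and 0.0271), and in WT Ccnb1 alone of the 3 was called (0.89, adjusted p = 0.0399).

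The Aurora and Polo kinases build and check the spindle. Aurka, which acts at the centrosome, read 2.43, 2.63 and 5.48 TPM in the WT PBS libraries, 3.08, 3.56 and 2.697 in KO PBS, 6.12, 4.65, 11.6 and 7.39 in WT LPS and 8.69, 6.69, 7.71 and 8.54 in KO LPS. Aurkb, the kinase of the chromosomal passenger complex, stood at 3.44, 2.42 and 7.604 TPM in the WT PBS libraries, 2.37, 3.61 and 2.93 in KO PBS, 7.66, 4.33, 10.05 and 7.03 in WT LPS and 10.96, 8.68, 9.43 and 10.3 in KO LPS. For both, all KO LPS libraries were above all KO PBS libraries. Plk1, the Polo kinase, was measured at 3.902, 5.18 and 9.06 TPM in the WT PBS libraries, 4.01, 4.94 and 5.06 in KO PBS, 9.52, 5.86, 10.8 and 7.08 in WT LPS and 14.1, 11.2, 12.8 and 5.67 in KO LPS. In KO its lowest LPS value, in KO_LPS_4, was just above the PBS values. Melk, a mitotic kinase, read 1.48, 1.68 and 2.11 TPM in the WT PBS libraries, 0.414, 1.48 and 0.846 in KO PBS, 2.87, 2.77, 6.55 and 2.31 in WT LPS and 6.8003, 5.31, 4.28 and 4.06 in KO LPS. Pbk, also a mitotic kinase, stood at 2.83, 3.45 and 5.83 TPM in the WT PBS libraries, 2.63, 3.61 and 4.51 in KO PBS, 8.82, 5.82, 19.8 and 9.39 in WT LPS and 17.3, 13.6, 8.99 and 9.75 in KO LPS. Their LPS values exceeded the PBS values of KO without overlap, and for Melk this also held in WT. The KO rises of the 5 kinases ranged from 1.02 (Plk1, adjusted p = 0.0211) to 1.69 (Melk, adjusted p = 8.71e-04), and in WT Aurka (0.90, adjusted p = 0.0178) and Pbk (1.17, adjusted p = 0.0162) were called.

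Bub1, Bub1b and Ttk are kinases or kinase-like proteins of the spindle checkpoint, which holds cells in metaphase. Bub1 was measured at 0.758, 2.39995 and 5.45 TPM in the WT PBS libraries, 1.18, 3.02 and 1.53 in KO PBS, 5.59, 3.13, 9.31 and 5.22 in WT LPS and 7.46, 6.94, 6.65 and 5.63 in KO LPS. Bub1b read 4.73, 5.33 and 10.3 TPM in the WT PBS libraries, 3.83, 6.32 and 4.79 in KO PBS, 9.34, 7.69, 16.003 and 10.6 in WT LPS and 13.6, 11.8, 12.5 and 11.4 in KO LPS. Ttk stood at 0.805, 0.821 and 2.12 TPM in the WT PBS libraries, 0.417, 0.939 and 0.767 in KO PBS, 1.73, 1.15, 2.33 and 1.9002 in WT LPS and 2.497, 1.18, 2.25 and 2.197 in KO LPS. All 3 were apart between LPS and PBS in KO, with rises of 1.44, 1.17 and 0.82, and none was called in WT. Ttk passed the filter through the LPS groups, so its KO call is not independent of the filter. The checkpoint restrains the APC/C, the ubiquitin ligase that ends mitosis. Its activator Cdc20 was measured at 5.54, 6.102 and 15.04 TPM in the WT PBS libraries, 5.49, 8.78 and 7.02 in KO PBS, 13.5, 8.41, 14.6 and 9.34 in WT LPS and 22.7, 14.6, 13.2 and 10.9 in KO LPS. Its ubiquitin-conjugating enzyme Ube2c read 2.37, 4.57 and 10.6 TPM in the WT PBS libraries, 1.97, 6.75 and 4.49 in KO PBS, 11.6, 8.17, 10.5 and 7.91 in WT LPS and 13.6, 13.7, 14.9 and 8.79 in KO LPS. Cdca3, a substrate that it degrades, stood at 1.61, 1.99 and 6.62 TPM in the WT PBS libraries, 2.503, 3.63 and 3.38 in KO PBS, 6.88, 3.85, 11.8 and 6.58 in WT LPS and 8.504, 7.99, 7.32 and 6.24 in KO LPS. The 3 genes rose in KO by 0.99 to 1.43 without overlap, and Cdca3 rose in WT as well (1.00, adjusted p = 0.04).

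Kif11, Kif20a and Kif23 are motors of the spindle and of cytokinesis. Kif11 was measured at 6.13, 4.74 and 9.29 TPM in the WT PBS libraries, 3.63, 4.15 and 4.07 in KO PBS, 6.203, 4.95, 12.4 and 7.64 in WT LPS and 12.1, 10.1, 10.001 and 9.08 in KO LPS. Kif20a read 2.23, 2.35 and 4.81 TPM in the WT PBS libraries, 2.83, 2.98 and 1.74 in KO PBS, 5.73, 3.904, 6.13 and 3.02 in WT LPS and 8.22, 5.701, 6.37 and 4.31 in KO LPS, and shares 1271 exon bases with Cdc23 on the opposite strand, a gene at up to 19.6 TPM. Kif23 stood at 3.03, 2.49 and 6.15 TPM in the WT PBS libraries, 2.31, 2.63 and 2.48 in KO PBS, 5.77, 3.98, 7.19 and 4.89 in WT LPS and 9.86, 6.26, 7.39 and 5.58 in KO LPS. These motors rose in KO by 1.01 to 1.23 and were not called in WT, where Kif11 was at 0.16. Nusap1, a microtubule-binding protein, was measured at 4.498, 3.86 and 7.02 TPM in the WT PBS libraries, 2.57, 3.58 and 1.73 in KO PBS, 7.38, 6.47, 9.79 and 5.105 in WT LPS and 10.6, 9.86, 9.25 and 6.04 in KO LPS. Tpx2, the activator of Aurora A on the spindle, read 4.66, 3.45 and 8.402 TPM in the WT PBS libraries, 2.72, 4.34 and 3.53 in KO PBS, 9.33, 6.38, 12.3 and 8.73 in WT LPS and 15.6, 12.7, 10.9 and 8.89 in KO LPS. Prc1, which bundles the central spindle, stood at 1.77, 2.801 and 3.97 TPM in the WT PBS libraries, 1.296, 2.61 and 1.73 in KO PBS, 5.303, 3.27, 7.17 and 3.902 in WT LPS and 7.15, 6.01, 6.74 and 4.396 in KO LPS. For the 3 microtubule proteins every KO LPS library was above every KO PBS library, with rises of 1.46, 1.51 and 1.31.

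Cenpe, the kinetochore motor, was measured at 2.17, 1.43 and 3.74 TPM in the WT PBS libraries, 1.38, 2.04 and 1.38 in KO PBS, 5.33, 3.33, 7.66 and 4.61 in WT LPS and 7.88, 6.51, 6.62 and 5.93 in KO LPS. It rose in both genotypes, by 1.58 in KO (adjusted p = 6.12e-04) and 0.86 in WT (adjusted p = 0.0179). Birc5 (survivin) and Cdca8 (borealin) belong to the chromosomal passenger complex with Aurora B. Birc5 read 1.16, 3.21 and 5.52 TPM in the WT PBS libraries, 2.53, 1.97 and 1.901 in KO PBS, 7.27, 4.15, 7.81 and 6.87 in WT LPS and 9.73, 8.68, 11.9 and 6.23 in KO LPS. Cdca8 stood at 1.61, 1.38 and 5.5004 TPM in the WT PBS libraries, 1.62, 2.72 and 2.22 in KO PBS, 5.33, 2.89, 7.14 and 3.91 in WT LPS and 5.89, 5.84, 6.48 and 4.09 in KO LPS. The KO rises were 1.67 and 1.04 (adjusted p = 0.00188 and 0.031), and in WT Birc5 was called (0.92, adjusted p = 0.0382). Hmmr, a spindle protein and hyaluronan receptor, was measured at 1.296, 1.57 and 4.02 TPM in the WT PBS libraries, 1.77, 1.66 and 1.42 in KO PBS, 4.71, 2.58, 5.96 and 3.84 in WT LPS and 6.75, 5.56, 5.93 and 4.36 in KO LPS. It rose in KO (1.33, adjusted p = 0.00309).

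Cenpf and Stmn1 were the 2 genes of the mitotic groups that were not called with LPS in KO. Cenpf, another kinetochore protein, ranged only from 1.76 to 4.37 TPM over all libraries. Stmn1 encodes stathmin, which destabilises microtubules and is also made in non-dividing cells. Stmn1 read 72.1, 76.4 and 90.1 TPM in the WT PBS libraries, 57.9, 69.1 and 60.1 in KO PBS, 75.1, 53.1, 68.999 and 53.5 in WT LPS and 83.2, 74.3, 85.3 and 65.7 in KO LPS. Its lowest value, 53.1 TPM, was above the highest of every other mitotic gene, which was 45.2 TPM (Mki67 in KO_LPS_1). With LPS it was at −0.35 in WT (adjusted p = 0.0564) and 0.30 in KO (adjusted p = 0.109), and the difference of these effects, 0.65, was not called (adjusted p = 0.417).

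The 28 mitotic genes were summed in each library to set them beside markers of other cells. Their summed TPM was 90.3, 97.6 and 226 in WT PBS, 79.6, 124 and 89.98 in KO PBS, 237, 161, 342 and 216 in WT LPS, and 355, 293, 293 and 225 in KO LPS. The sum over 8 genes of neutrophils and their precursors was 5154, 7092 and 22115 TPM in the WT PBS libraries, 4620, 7114 and 7326 in KO PBS, 8514, 9220, 19631 and 17824 in WT LPS, and 22775, 21625, 12988 and 10376 in KO LPS. WT_PBS_914 was high in both sums, and the KO LPS libraries were above the KO PBS libraries in both. Elane, the elastase made by neutrophil precursors, stood at 7.15, 14.96 and 209.7 TPM in the WT PBS libraries, 4.17, 21.4 and 9.13 in KO PBS, 39.4, 16.6, 8.96 and 22.6 in WT LPS and 65.2, 48.7, 33.6 and 14.4 in KO LPS. Its highest value was in WT_PBS_914, and its LPS and PBS values overlapped in both genotypes. In KO the overlap rested on KO_LPS_4, at 14.4 TPM, below the highest KO PBS library at 21.4 TPM. The remaining KO LPS libraries lay above every KO PBS library. The other markers of the neutrophil sum are not shown singly. The summed TPM of 5 monocyte markers was 363 to 1181 in PBS and 1532 to 2264 in LPS libraries. None of the 8 neutrophil or the 5 monocyte markers was at 0 throughout a group. Without both pituitary-rich libraries, WT_PBS_914 and KO_LPS_3, 27 of the 28 mitotic genes were called higher with LPS in KO (median 1.33). In WT 20 were called (median 1.06). WT_PBS_914 was also the highest PBS library in the neutrophil sum, so that fit does not separate the 2. The part of neutrophils, monocytes, choroid plexus, sex and pituitary transcripts in the mitotic result was not tested.

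**Figure D4:**
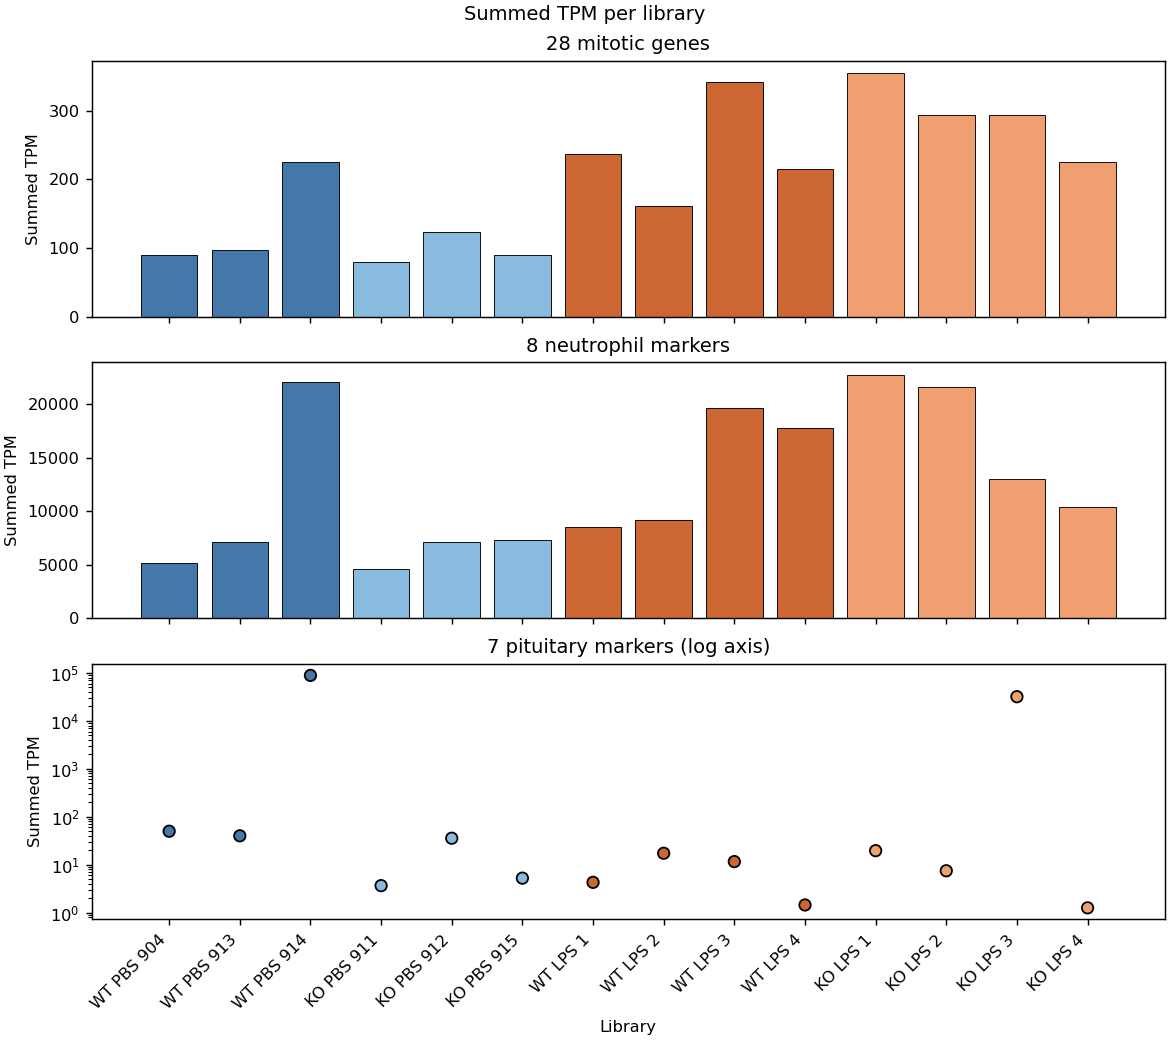
Summed TPM per library of the 28 mitotic genes (top), 8 markers of neutrophils and their precursors (middle) and 7 pituitary markers (bottom, log axis), with bars or points coloured by group. The mitotic sum is 79.6 to 226 in PBS and 161 to 355 in LPS libraries, and WT_PBS_914 is the highest PBS library in all 3 panels.

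Between genotypes, the mitotic genes had opposite signs under the 2 treatments, and none was called. Under PBS, 27 of the 28 mitotic genes were lower in KO, with a median of −0.31. Under LPS all 28 were higher in KO, with a median of 0.31, where 62.8% of all genes were positive. Without WT_LPS_2 that median was 0.17 with 24 of 28 positive, without KO_LPS_1 it was 0.20 with 26 positive, and without WT_LPS_3 it was 0.46. The PBS direction rested on 1 library: without WT_PBS_914 the median was 0.04 and 18 of 28 genes were higher in KO. For Mki67 the difference under PBS was −0.32 with all libraries and 0.18 without WT_PBS_914 (adjusted p = 0.716 and 0.845). Over all 57 genes the median was −0.20 under PBS, with 15 positive against 49.1% of all genes, and 0.24 under LPS, with 46 positive. Without WT_PBS_914 the PBS median of the 57 was 0.066 with 36 positive, and the LPS median was 0.13 with 38 positive without WT_LPS_2 and 0.39 with 52 positive without WT_LPS_3. The groups did not overlap for 4 genes higher in KO under PBS (Ccnd1, Cdk6, Gins1 and Mcm7; 14.9% of all genes) and for 5 lower (Kif11, Nusap1, Stmn1, Ccnd3 and Melk; 10.9%). Under LPS they did not overlap for 3 genes higher in KO (Ccnd2, Ccnd3 and Cdk4; 4.22%) and for none lower (1.96%). The number of genes with an unadjusted p under 0.05 was 9 of 57 under PBS (15.7% of all genes) and 7 of 57 under LPS (11.7%).

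**Figure D5:**
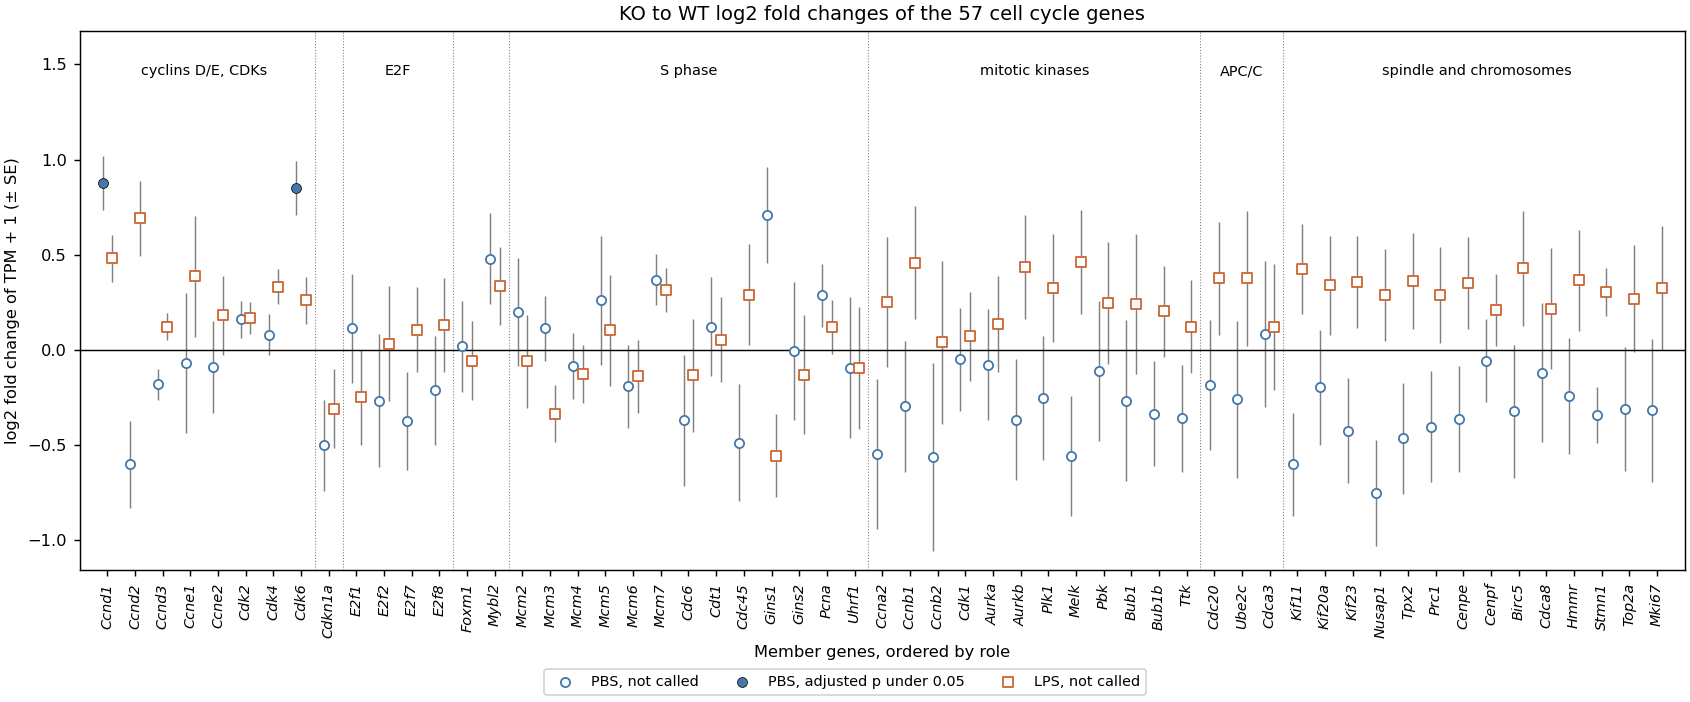
Log2 fold changes (TPM + 1) of KO against WT for each of the 57 genes, ordered by role, under PBS (circles) and LPS (squares). Bars are 1 SE and filled symbols mark an adjusted p under 0.05, which only Ccnd1 (0.88) and Cdk6 (0.85) under PBS reach.

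In the test of the difference between the LPS effects, all 28 mitotic genes had a larger effect in KO, with a median of 0.61 that was 0.25 without WT_PBS_914, and none was called. Of all 57 genes 42 were positive in that test, against 55.9% of all genes tested. The LPS to PBS and KO to WT comparisons share libraries, so these directions are not independent of each other.

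Other genes of the cycle were taken from a second list of 106, all tested. With LPS, 14 rose and 19 fell in WT, next to 7.95% (higher) and 34.1% (lower) of all genes. In KO 29 rose and 18 fell, next to 7.82% and 26.9%. The other kinetochore, spindle and condensin genes held 8 of 29 higher and 1 lower in WT, and 19 higher and 1 lower in KO. Kif2c, a kinesin that takes microtubules apart, had the largest change. Kif2c was measured at 2.32, 1.69 and 2.57 TPM in the WT PBS libraries, 1.03, 1.7995 and 0.823 in KO PBS, 17.7, 21.2, 21.98 and 22.96 in WT LPS and 11.2, 15.4, 12.9 and 11.1 in KO LPS. Its rises of 2.79 in WT and 2.63 in KO (adjusted p = 8.84e-07 and 1.32e-06) came without overlap, and under LPS it was lower in every KO library, by 0.69, which was not called (adjusted p = 0.0939). Of 28 further replication factors, such as the origin recognition complex, none rose in either genotype, and 6 fell in WT and 7 in KO, which is no larger a share than the 34.1% and 26.9% of all genes called lower. Among E2F, DP and MuvB subunits 5 of 11 fell in each genotype, against those same shares of all genes, and none rose. Tfdp2, a dimer partner of E2F factors, fell in WT (−1.06, adjusted p = 4.14e-04) and in KO (−0.53, adjusted p = 0.0231). The KO call of Tfdp2 was lost with median-of-ratios scaling (−0.29, adjusted p = 0.173), after rescaling (adjusted p = 0.14), with voom (adjusted p = 0.0955) and without KO_LPS_2 or KO_PBS_912 (adjusted p = 0.0586 and 0.105).

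The other CDK inhibitors moved both ways. Cdkn1c, p57, fell in WT (−1.31, adjusted p = 0.00142) and in KO (−0.73, adjusted p = 0.0355), while Cdkn2d, p19 of the INK4 family, rose in WT (1.35, adjusted p = 1.62e-04) and in KO (1.71, adjusted p = 2.44e-05). The KO fall of Cdkn1c was not called with median-of-ratios scaling (−0.48, adjusted p = 0.167), after rescaling (adjusted p = 0.107) or with voom (adjusted p = 0.231). It was also not called without the filter (adjusted p = 0.0597) or without KO_LPS_1, KO_LPS_4, KO_PBS_911 or KO_PBS_912 (adjusted p = 0.0722 to 0.138). Ccng2, an atypical cyclin linked to arrest, fell in WT (−0.87, adjusted p = 0.00756) and in KO (−0.99, adjusted p = 0.00411). The WT call of Ccng2 was lost with median-of-ratios scaling (−0.53, adjusted p = 0.0509). Among growth receptors and ligands, Csf2rb, the shared beta chain of cytokine receptors, rose in WT (1.82, adjusted p = 6.52e-06) and KO (1.65, adjusted p = 1.18e-05). Csf1, the growth factor of microglia, rose in WT (1.71, adjusted p = 7.67e-05) and in KO (1.03, adjusted p = 0.0016), and Tgfbr1, a receptor of TGF-beta, fell in WT (−1.11) and KO (−1.34; adjusted p = 6.48e-04 and 1.72e-04).

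Between KO and WT under PBS, 2 of the 106 were called, 1 higher and 1 lower in KO. Of all genes tested 1.02% were called, 0.796% higher and 0.224% lower, so the count is small beside a similar share. Myc, a transcription factor of cell growth, read 48.5, 50.7 and 49.9 TPM in the WT PBS libraries, 108, 111 and 99.2 in KO PBS, 71.9, 91.3, 65.7 and 129 in WT LPS and 92.6, 96.4, 95.9 and 89.5 in KO LPS. It was higher in all KO PBS than in all WT PBS libraries (1.08 ± 0.18 (SE), adjusted p = 0.0196). Wee1, the kinase that holds Cdk1 inactive, stood at 8.49, 8.82 and 5.61 TPM in the WT PBS libraries, 2.46, 3.78 and 2.42 in KO PBS, 8.34, 10.9, 9.12 and 7.11 in WT LPS and 10.8, 5.53, 9.03 and 9.24 in KO LPS. It was lower in KO PBS (−1.15 ± 0.24 (SE), adjusted p = 0.0474). Both calls were lost whichever library of the compared groups was left out, at adjusted p of 0.0573 to 0.097 for Myc and 0.0689 to 0.166 for Wee1. Under LPS none of the 106 was called between the genotypes, against 0.497% of all genes tested, and Kif2c had the smallest p.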

How the data were processed

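Microglial RNA was sequenced in 14 libraries. Tools named per the submitters' processing notes are cutadapt 4.4, FastQC 0.11.9, featureCounts 2.0.1 and STAR 2.7.10b. A human build, hg38, is also named there, although gene IDs are murine. The values deposited by the authors are TPM per gene. Strand of the library is not given in the sources used here. Symbols matched 41588 of 41739 IDs. Reads were recovered from TPM and GENCODE M21 exon-union lengths, within 0.02 of a whole number for 98.4% to 98.6% of values and in all libraries for 41273 genes, and served for depth and 1 alternative.

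Values as log2(TPM + 1) were fitted with limma (3.58.1; R 4.3.3), using 4 group means and the intensity trend. P-values were adjusted by Benjamini-Hochberg across 18724 genes that reached 1 TPM in 3 or more libraries. Every adjusted p is from this limma test. The fit was tested on simulated data. The alternatives were pseudocounts of 0.1 and 5, no filter, a filter at 5 TPM, median-of-ratios scaling, rescaling after removal of abundant and short features, the compared groups alone, no trend, library weights, voom on recovered reads, a replicate block, and libraries left out.

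The genes and lists were chosen with earlier results of these data known. Values in every library are given for genes called in any comparison, for the 3 with the smallest p where fewer were called, and for Mki67, Top2a, Cdk1, Pcna, Mcm2, Ccnd1, Ccnd2, Ccnd3, Cdkn1a, E2f1, E2f2, E2f8 and Stmn1. Of the 106 other cycle genes up to 3 per direction and comparison are named, by size of change, and those named with LPS in 1 genotype are given in both. Exon overlap was read from GENCODE M21, where 24 of the 57 genes share exon bases with another gene. Only some of these are named above. Others, on the opposite strand, include Prc1 with Rccd1 (911 bases), Ccna2 with Exosc9 (510) and Cdca8 with 9930104L06Rik (232).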

Additional observations from a re-analysis of the deposited data

Results flagged for a closer look

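In the LPS groups, 116 groups of 4 values were examined for a library set apart from the other 3 by Dixon's 95% criterion, and 10 had one. Chance gives about 1 in 20 for independent groups. These groups share the same libraries and are not independent, so the 10 are not separate findings. In 8 of the 10 the library was WT_LPS_3, above the other 3 WT LPS libraries. Its values were 5.93 TPM for Ccne1, 16.6 for E2f2, 57.6 for Mcm3, 35.5 for Mcm5, 5.85 for Cdc45, 3.47 for Gins2, 129 for Pcna and 6.55 for Melk. These are mostly genes of the G1 to S transition and of replication. In KO LPS, Ccnd1 was at 49.4 TPM in KO_LPS_2, below the other 3 libraries, and E2f2 at 9.71 TPM in KO_LPS_4, also below them. KO_LPS_4 was the library with the fewest recovered reads, 8.00 M (mega).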

How the results depend on the processing

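The replicate block was fitted for KO against WT under LPS only, and the interaction has no fit of the compared groups alone. The other alternatives were run for every comparison, and 1 (WT LPS against PBS without WT_PBS_914 and WT_LPS_3) was chosen after seeing the data. For KO against WT under PBS, 191 genes were called, and 79 without the filter, 109 with the compared groups alone, 65 without the trend, 999 with library weights, 18 without both pituitary-rich libraries and 8 to 49 with 1 library left out. The 2 cell cycle genes called there became 1 with the compared groups alone, 0 without both pituitary-rich libraries and 0 to 1 with 1 library left out. Under LPS the 93 genes became 32 without the filter, 141 with the filter at 5 TPM, 173 with median-of-ratios scaling, 167 after rescaling, 0 with the compared groups alone (limma), 47 without the trend, 168 with library weights, 308 with voom, 8 without both pituitary-rich libraries and 18 to 100 with 1 library left out. The cell cycle genes called under LPS were 0, and 1 after rescaling and with voom, and 0 to 1 with 1 library left out.

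With LPS in WT the 13 cell cycle genes called became 30 with median-of-ratios scaling, 6 with the compared groups alone, 29 with library weights, 27 without both pituitary-rich libraries, 25 without WT_PBS_914 and WT_LPS_3, and 5 to 29 with 1 library left out. In KO all genes called went from 6494 to 4251 with median-of-ratios scaling. The interaction called 0 genes, and 3 with a pseudocount of 0.1, 1 with a pseudocount of 5, 1 without the filter, 2 with median-of-ratios scaling, 1 without the trend, 1 with library weights, 3 without both pituitary-rich libraries, and 0 to 2 with 1 library left out. The causes were not tested.

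Median-of-ratios scaling moved the median gene with LPS in WT from −0.28 to 0.01, and the share of calls that were higher from 18.9% to 55.1% in WT, from 22.6% to 54.8% in KO, from 51.6% to 15.6% between genotypes under LPS and from 78.0% to 67.7% under PBS. Rescaling gave 42.4% in KO and 69.5% between genotypes under LPS, and voom gave 29.7% in WT and 45% in KO.

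Under PBS, 15 of the 57 genes were positive in KO against WT, and 36 without WT_PBS_914. Among the genes followed singly, signs turned for 3, none called. Cdk1 in KO against WT under LPS went from 0.07 to −0.0101 with median-of-ratios scaling and ranged from −0.0829 to 0.284 with 1 library left out. Under PBS, Cdk1, Mki67 and Top2a were at 0.0612, 0.182 and 0.066 without both pituitary-rich libraries. With 1 library left out they ranged from −0.139 to 0.0612, −0.686 to 0.182 and −0.522 to 0.066, the highest in each case without WT_PBS_914.

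The LPS libraries carry numbers 1 to 4 in both genotypes, but no label says what a number shares. Same-numbered libraries deviated from their group means with correlations across genes of 0.06, −0.06, −0.09 and −0.03. No WT LPS library correlated best with the KO LPS library of its own number. Among the KO LPS libraries only KO_LPS_1 correlated best with the WT LPS library of its own number. With the replicate block the KO to WT comparison under LPS called 0 genes with limma, of which 1364 had an unadjusted p under 0.05.

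Low reads limit Ccne1, E2f7, Cdc6 and Ttk most. Sex, Cre and the Tmem119 allele cannot be told apart from the groups.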
